A study of Mus musculus with 6 samples.

Results

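The genes described here make cholesterol or move it into, within and out of the cell, and they number 30 of the 19673 genes tested on the arrays. They were chosen by function: 17 enzymes of the synthesis pathway, 5 genes of its sterol-sensing control, 4 genes of uptake and lysosomal release, 2 genes of storage and transfer within the cell, and 2 exporters. A probe was taken as a member's when its transcript identifier matched that gene in the RefSeq gene table. All 30 members were on the array, with 40 probes between them, and the scanner software marked all 30 as well above background on each of the 6 arrays.

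RNA was measured in 2 groups of 3 samples, each on its own 1-colour Agilent array, after labelling of 100 ng of total RNA with the dye Cy3. The first group, called soma, is somatic cells from the genital ridges of male E13.5 mouse embryos of the background MCH x C57BL6/J carrying the Oct5<delta>PE-GFP Tg transgene, as the labels spell it. The second, called ESC, is VR15, a male mouse embryonic stem cell line carrying a Vasa::RFP Tg transgene. The series concerns how primordial germ cells run their energy metabolism, and germ cell samples were not analysed here. Soma is a mixture of cell types, and the labels do not say how the cells were separated or whether embryos were pooled. ESC is 1 line, so the comparison is of this line, grown in culture, with fetal gonad cells taken from the embryo. The design text calls the 3 samples of each group biological replicates.

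Cholesterol is built from acetyl-CoA through mevalonate, isoprenoid diphosphates and squalene, and the first sterol, lanosterol, is then trimmed by a chain of demethylations, reductions and isomerisations. When sterols in the endoplasmic reticulum run low, SCAP carries SREBP transcription factors to the Golgi, where they are cut and released to switch on the genes of synthesis and uptake, and INSIG proteins hold the complex back when sterols are plentiful. Cells also take up cholesterol from lipoproteins, free it in the lysosome, store it as esters and pass the excess to outside acceptors. In the fetal testis, cholesterol is the starting material for the steroids made by Leydig cells.

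The stretches below lie just upstream of the starts of 4 members that span the results: an early synthesis enzyme near the middle of the list, the synthesis enzymes at its lower and upper ends, and the exporter that was lower in ESC. Each is the 250 bases before the start in RefSeq's annotation of GRCm38.p6, written 5′ to 3′ on the gene's own strand. They lie at chr13:119690101-119690350 on the plus strand for Hmgcs1, chr19:6067851-6068100 on the minus strand for Tm7sf2, chrX:8193513-8193762 on the minus strand for Ebp, and chr4:53159896-53160145 on the minus strand for Abca1. Capitals in Hmgcs1 mark the sterol regulatory element letters TCACNCCAC and the box CCAAT, read on either strand. Capitals mark CCAAT on either strand in Tm7sf2 and Ebp, and in Abca1 on either strand, a relaxed form of the repeat that LXR sterol receptors bind, which is GGTNA, any 5 bases and GGTNA again.
Hmgcs1: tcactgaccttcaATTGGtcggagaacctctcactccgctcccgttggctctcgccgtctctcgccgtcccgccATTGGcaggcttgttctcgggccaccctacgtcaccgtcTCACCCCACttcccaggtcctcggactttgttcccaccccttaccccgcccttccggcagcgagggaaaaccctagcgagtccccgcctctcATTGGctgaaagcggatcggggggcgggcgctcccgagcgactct
Tm7sf2: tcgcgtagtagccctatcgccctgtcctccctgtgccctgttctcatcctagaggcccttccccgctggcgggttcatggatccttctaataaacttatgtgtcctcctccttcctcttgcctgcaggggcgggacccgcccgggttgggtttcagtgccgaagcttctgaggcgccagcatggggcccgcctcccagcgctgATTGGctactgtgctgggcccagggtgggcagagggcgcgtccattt
Ebp: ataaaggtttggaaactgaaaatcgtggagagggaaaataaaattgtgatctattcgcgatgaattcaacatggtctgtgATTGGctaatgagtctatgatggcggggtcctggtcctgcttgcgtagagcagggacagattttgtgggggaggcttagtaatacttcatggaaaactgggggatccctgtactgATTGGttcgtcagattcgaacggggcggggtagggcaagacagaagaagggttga
Abca1: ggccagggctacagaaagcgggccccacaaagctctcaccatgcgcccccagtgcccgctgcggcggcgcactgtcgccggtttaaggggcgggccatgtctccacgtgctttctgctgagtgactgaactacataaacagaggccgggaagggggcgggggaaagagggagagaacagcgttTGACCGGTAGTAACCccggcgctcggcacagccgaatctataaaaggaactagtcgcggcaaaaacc

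RefSeq windows were found for 23 of the 30 members, 14 of them synthesis enzymes, and each window holds 250 bases before and 50 after a start. CCAAT, the box bound by NF-Y, a partner of SREBP at many sterol genes, occurred in a window of 14 of 14 synthesis enzymes and of 7 of 9 other members, against 41.1% of all genes with a window and 37.4% of 32851 windows. The sterol element letters were found in 1 member, Hmgcs1, at position -137 from the start, and in 1.24% of all windows. The relaxed LXR repeat was found in Abca1, at position -67, and in Srebf1, at position -182, and in 0.718% of all windows. Both genes are known targets of LXR in other cells. The motifs can overlap one another, and a match describes letters and no binding. Tm7sf2 and Ebp both hold CCAAT upstream and stand at opposite ends of the synthesis enzymes' differences.

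Values are given as the log2 of the processed signal less the array's 75th percentile, so that 0 is the signal at that percentile of the array's gene probes and 1 unit is a 2-fold difference. A difference is ESC minus soma, with the standard error (SE) of the limma fit over 3 and 3 arrays and a p-value adjusted by Benjamini and Hochberg's method over 19673 genes. A gene passed at an adjusted p under 0.05. Probes differ in brightness for reasons of their own sequence, so values are compared between groups for 1 probe and never between genes.

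The 75th percentile of the signal was 1245 to 1388 on the soma arrays and 959 to 1016 on the ESC arrays. The means were 1323 ± 72.6 (SD, n = 3) and 983 ± 29.3 (SD, n = 3), and an exact two-sided permutation test gave p = 0.1, the smallest that 3 against 3 allows. From 56.0% to 63.2% of gene probes were well above background, and 0 spots were saturated. Soma 1 and soma 2 shared slide 1, while soma 3 and all ESC arrays were on slide 2, and the ESC arrays had a scan of their own, so that scan and group cannot be told apart. Pluripotency markers were higher in ESC for 6 of 6 genes, with a summed linear level of 284 to 295 times the 75th percentile against 5.06 to 7.48 in soma. The markers of the gonad were there in soma, with Sertoli cell genes at 11.3 to 16.3 against 0.418 to 0.478 in ESC and interstitial stroma genes at 98.2 to 115 against 0.429 to 0.866. Soma also held macrophage genes (6.72 to 7.20 against 0.629 to 0.853 in ESC), embryonic red cell genes (340 to 347 against 0.0609 to 0.0770), and germ cell genes at 3.795 to 7.54, highest on soma 3, against 5.39 to 5.99.

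Of the 30 members, 9 were higher in ESC, 15 were lower and 6 did not pass, as limma with Benjamini-Hochberg adjustment called them. In all, 84.9% of the genes tested passed, 46.6% higher and 38.3% lower in ESC, so passing is the usual state of a gene here. Past 2-fold the members had 1 gene higher and 7 lower, against 24.2% and 23.2% of all genes. The groups did not overlap for 27 of the 30 members, against 87.1% of all genes. The median of the members' differences was -0.18, against 0.14 over all genes, and the median of their sizes was 0.44 against 0.95. All 30 members were well above background on each of the 6 arrays, while 16088 of the 19673 genes remained with that filter. The sizes were not compared within those genes. The split between directions moved with the scaling, to 11 higher and 11 lower when arrays were scaled to their median, and to 4 higher and 18 lower when they were scaled to the spike-in probes. Of all genes that passed, 61% were higher in ESC with the median and 47.7% with the spike-in probes, against 54.9% as reported. These are bulk samples, so fewer cells of a type and less RNA per cell cannot be told apart.

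**Figure D1:**
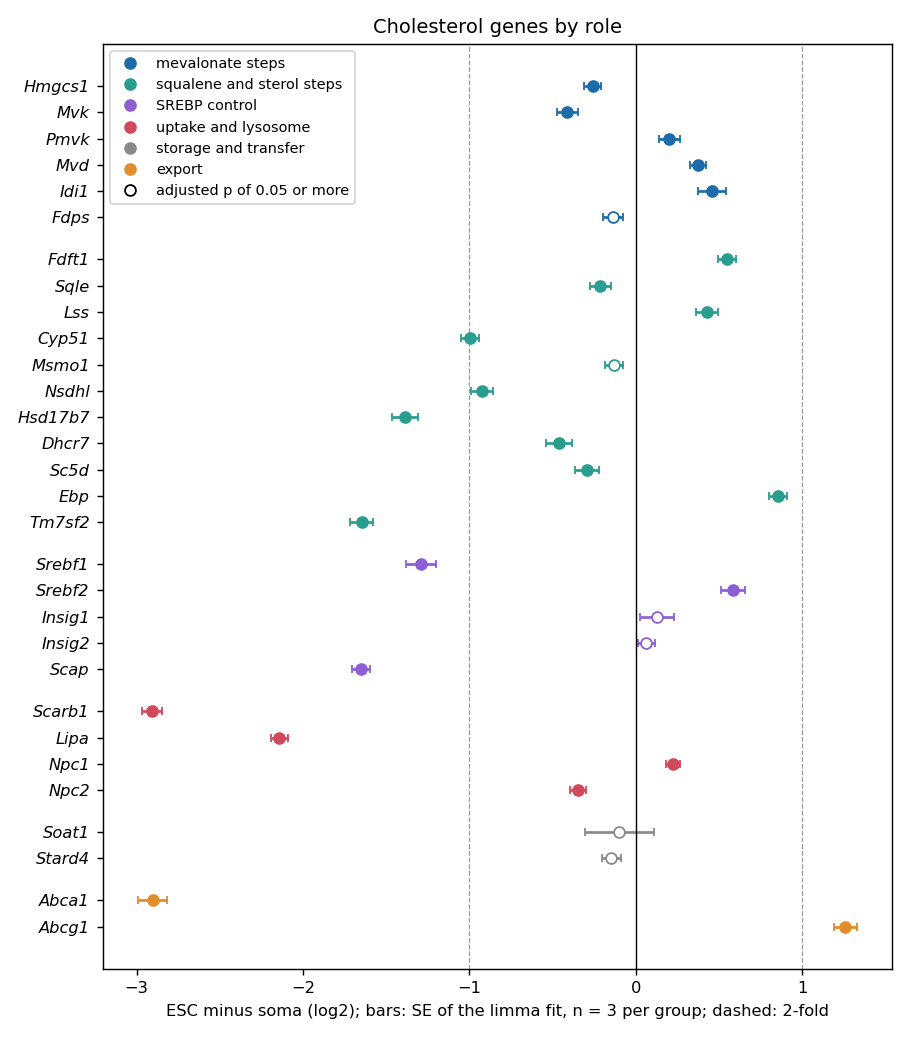
Difference of each of the 30 members between ESC and soma (horizontal axis, log2), grouped by role, with bars for the SE of the limma fit, n = 3 arrays per group. Open points did not pass at an adjusted p under 0.05. The synthesis enzymes lie between -1.65 and 0.85, while Scarb1, Abca1 and Lipa lie below -2 and Abcg1 alone lies above 1.

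Most of the 17 synthesis enzymes differed by less than 2-fold between the fetal gonad cells and the stem cell line. In ESC 6 were higher, 9 were lower and 2 did not pass. Of the 17, 15 did so, against 10230 of all 19673 genes. That count moved with the scaling. Cyp51 (-0.998) and Nsdhl (-0.93) went past 2-fold with the spike-in probes, at -1.21 and -1.14. Ebp (0.85) went past it in the other direction with the array median, at 1.05. The median of their differences was -0.21 and they ran from -1.65 to 0.85. The split was 4 higher and 12 lower under quantile normalization, 6 and 6 with the array median, and 2 and 11 with the spike-in probes. Of all genes that passed, 50.8%, 61% and 47.7% were higher in ESC under those scalings in turn, against 54.9% as reported.

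The 6 members of the mevalonate steps, from HMG-CoA to farnesyl diphosphate, lay within 0.46 log2 units of soma, with 3 genes higher, 2 lower and 1 not passing. Hmgcs1, the synthase that makes HMG-CoA, read 4.73, 4.66 and 4.75 in soma and 4.41, 4.50 and 4.46 in ESC. The 3 ESC arrays sat below the 3 soma arrays, but the drop was small, at -0.26 (SE 0.052, adjusted p = 0.00390), with a size that moved with the scaling. It was -0.86 under quantile normalization and -0.47 with the spike-in probes, and it did not pass when arrays were scaled to their median (-0.063). Mvk, the kinase that phosphorylates mevalonate, fell further, from 3.20, 3.33 and 3.19 to 2.86, 2.76 and 2.86, a difference of -0.41 (SE 0.0635, adjusted p = 0.00117). Its other probe, 0.77, 0.82 and 0.80 in soma and 0.54, 0.50 and 0.60 in ESC, gave -0.25.

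The following enzymes of the same stretch were higher in ESC. Mvd, the decarboxylase that makes isopentenyl diphosphate, read 0.14, 0.17 and 0.21 in soma and 0.56, 0.51 and 0.58 in ESC, a rise of 0.37 (SE 0.0497, adjusted p = 0.000567). Idi1, the isomerase of that product, read 2.54, 2.72 and 2.84 in soma and 3.18, 3.15 and 3.14 in ESC, a rise of 0.46 (SE 0.0828, adjusted p = 0.00246). The soma arrays spread over more than the ESC arrays did, and the groups stayed apart. Scaling to the spike-in probes left both below the threshold, Mvd at 0.16 and Idi1 at 0.24, and quantile normalization left Idi1 at 0.10.

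Pmvk and Fdps had the smallest differences of these steps. Pmvk, the kinase that follows Mvk, read 3.12, 3.12 and 3.09 in soma and 3.26, 3.25 and 3.43 in ESC, a difference of 0.20 (SE 0.0646, adjusted p = 0.0264). The third ESC array stood above the other two. The call did not pass without any 1 of soma 1 (0.21), soma 2 (0.21), soma 3 (0.19) or ESC 3 (0.14), and the sign turned under quantile normalization (-0.21) and spike-in scaling (-0.0100). A second Pmvk probe was higher in ESC by 0.30. Fdps, the farnesyl diphosphate synthase, was at 4.597 ± 0.0890 (SD, n = 3) in soma and 4.46 ± 0.0288 (SD, n = 3) in ESC, and its difference of -0.14 did not pass (95% interval -0.29 to 0.015, adjusted p = 0.0798). Fdps was lower and passed under quantile normalization (-0.73), spike-in scaling (-0.35), normexp correction (-0.16) and a variance trend (-0.14). With slide as a fixed block, where the difference rests on soma 3 alone, it was -0.23.

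The 11 enzymes from squalene onward held the larger differences of the synthesis pathway, with 3 higher, 7 lower and 1 not passing. The entry to the sterol branch was higher in ESC on its brightest probe. Fdft1, the squalene synthase, read 1.10, 1.18 and 1.23 in soma and 1.74, 1.69 and 1.73 in ESC, a rise of 0.55 (SE 0.0546, adjusted p = 0.000141). The scanner software marked its other probe as background on all 6 arrays, so that there is no second reading. Sqle, the squalene epoxidase, which is next in line and a rate-limiting step, read 3.64, 3.74 and 3.76 in soma and 3.51, 3.42 and 3.57 in ESC, a fall of 0.21 on the log2 scale (adjusted p = 0.0188). Here the groups came close, and the call did not pass without soma 2 (-0.20), soma 3 (-0.19) or ESC 2 (-0.17), or with scaling to the array median (-0.017). Lss, which closes the ring to lanosterol, was higher in ESC at 0.19, 0.10 and 0.16 against -0.36, -0.18 and -0.29 in soma, a rise of 0.43 (adjusted p = 0.00103) that did not pass with the spike-in scaling (0.22).

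Cyp51 and Tm7sf2, which act at carbon 14, were lower in ESC, while Lbr, a gene of the wider list that catalyses the same step as Tm7sf2, was higher, at 1.83. Cyp51, the 14-demethylase, read -0.09, 0.03 and -0.0024 in soma and -0.99, -1.05 and -1.01 in ESC. All ESC arrays lay about 1 unit below soma, a difference of -0.998 (SE 0.0535, adjusted p = 8.58e-06), and at 1.997-fold lower it fell just short of the 2-fold line. Tm7sf2, a 14-reductase that acts on the product of Cyp51, read 1.58, 1.64 and 1.74 in soma and -0.07, -0.0099 and 0.10 in ESC. It was 3.13-fold lower in ESC, at -1.65 (SE 0.0702, adjusted p = 3.44e-06), the lowest of the 17 synthesis enzymes, and its other probe gave -1.54.

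Of the 3 genes of demethylation at carbon 4, 2 were lower in ESC and 1 did not pass. Msmo1, the oxidase that starts the reaction, was at 3.83 ± 0.0532 (SD, n = 3) in soma and 3.70 ± 0.0502 (SD, n = 3) in ESC, and its difference of -0.13 did not pass (95% interval -0.26 to 0.0065, adjusted p = 0.0678). The groups did not overlap, and Msmo1 was lower and passed under quantile normalization (-0.61), spike-in scaling (-0.34), normexp correction (-0.15) and a variance trend (-0.13). Nsdhl, the dehydrogenase and decarboxylase, read 0.00, 0.04 and 0.17 in soma and -0.88, -0.89 and -0.80 in ESC, a difference of -0.93 (SE 0.0660, adjusted p = 3.02e-05), and -1.29 on its other probe. Hsd17b7, the ketone reductase that ends the reaction, read -0.59, -0.36 and -0.51 in soma and -1.89, -1.80 and -1.93 in ESC. It was 2.62-fold lower in ESC, at -1.39 (SE 0.0782, adjusted p = 1.06e-05), with -1.08 on its other probe. In both Nsdhl and Hsd17b7 the ESC arrays lay far below every soma array. Their differences were not tested against that of Msmo1.

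At the last steps the isomerase rose and the desaturase and reductase fell. Ebp, the isomerase that shifts the ring's double bond, read 2.48, 2.56 and 2.56 in soma and 3.36, 3.35 and 3.45 in ESC. At 1.80-fold higher in ESC (0.85, SE 0.0540, adjusted p = 1.76e-05) it was the highest of the 17 synthesis enzymes. Sc5d, the desaturase that follows, read 0.27, 0.41 and 0.35 in soma and -0.06, 0.14 and 0.07 in ESC, a difference of -0.29 (adjusted p = 0.00994). It did not pass with the array median (-0.10) or with slide as a fixed block (-0.30), where the difference rests on soma 3 alone. Dhcr7, which makes cholesterol from 7-dehydrocholesterol, read 0.61, 0.50 and 0.70 in soma and 0.07, 0.11 and 0.24 in ESC, a difference of -0.46 (SE 0.0791, adjusted p = 0.00192). The groups were apart in all 3 genes.

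**Figure D2:**
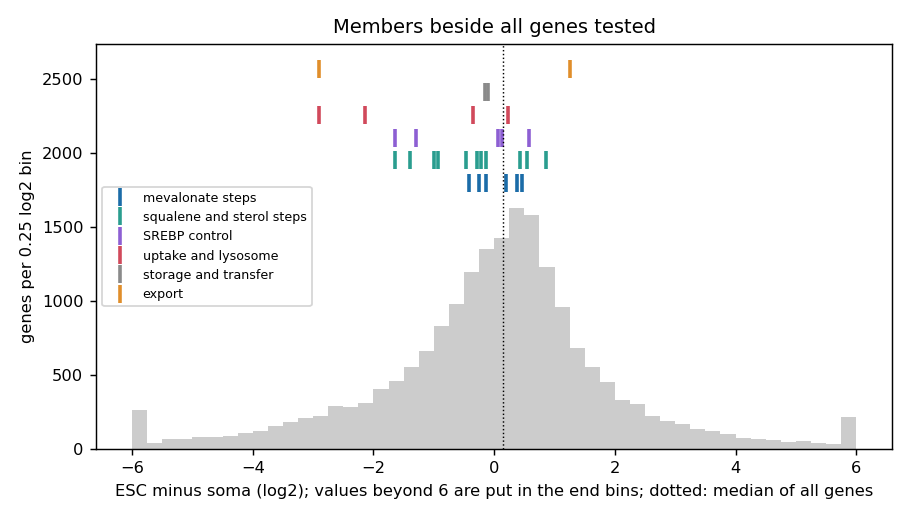
Number of genes per bin of 0.25 log2 units (grey, vertical axis) by their difference between ESC and soma (horizontal axis, log2), over 19673 genes, with values beyond 6 placed in the end bins and a dotted line at the median of 0.14. Coloured ticks above the bars mark the 30 members by role. The members lie inside the body of the distribution, and most of their differences are smaller than the 0.95 that is the median size over all genes.

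The 5 genes of sterol sensing did not move together, with 1 higher, 2 lower and 2 not passing. Srebf2, which encodes SREBP2, the factor that mainly drives cholesterol genes, read -0.53, -0.51 and -0.31 in soma and 0.13, 0.10 and 0.17 in ESC. It was 1.498-fold higher in ESC, at 0.58 (SE 0.0730, adjusted p = 0.000432), and 0.91 on its other probe. Srebf1, which encodes the SREBP1 forms that mainly drive fatty acid genes, read -2.16, -2.15 and -1.89 in soma and -3.30, -3.42 and -3.36 in ESC. It was 2.45-fold lower in ESC, at -1.29 (SE 0.0906, adjusted p = 2.80e-05), and -0.88 after normexp background correction.

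The SREBP genes thus differed in opposite directions between the groups. Within an array the Srebf2 value less the Srebf1 value was 1.63, 1.64 and 1.57 in soma and 3.43, 3.52 and 3.52 in ESC. A constant subtracted from an array cancels in this difference, and it changed by 1.87 between groups (exact two-sided permutation test p = 0.1, the smallest the design allows, adjusted p = 0.1 over 2 such pairs). The 2 probes differ in brightness, so the change can be read and the sign within a group cannot.

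Scap, which escorts both SREBPs, had the largest difference of the 5 control members. It read 3.14, 3.24 and 3.09 in soma and 1.499, 1.521 and 1.504 in ESC, which is 3.14-fold lower in ESC (-1.65, SE 0.0548, adjusted p = 1.38e-06). The ESC arrays were close to one another and far below soma. The retention factors did not pass. Insig1, itself a sensitive SREBP target, read -2.21, -1.95 and -1.84 in soma and -1.86, -1.88 and -1.89 in ESC, and the groups overlapped (0.13, 95% interval -0.12 to 0.37, adjusted p = 0.277). Insig2 read 0.12, 0.16 and 0.039 in soma and 0.16, 0.17 and 0.18 in ESC, also overlapping (0.06, 95% interval -0.064 to 0.19, adjusted p = 0.285). The other Insig2 probe gave -0.10 and did not pass (adjusted p = 0.229 over all probes). Array-median scaling brought both past the threshold, at 0.32 and 0.26, quantile normalization brought Insig1 past it, at 0.28, and spike-in scaling turned both signs, to -0.086 and -0.15.

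Of the 4 genes of uptake and lysosomal release, 3 were lower in ESC and 1 was higher. Scarb1 and Lipa stood far below soma. Scarb1, the receptor SR-B1 that takes cholesteryl esters from high-density lipoprotein, read 3.82, 3.70 and 3.72 in soma and 0.89, 0.80 and 0.81 in ESC. Every ESC array was far below every soma array. Scarb1 was 7.50-fold lower in ESC, at -2.91 (SE 0.0573, adjusted p = 3.15e-07), and a second probe, at 0.69, 0.70 and 0.50 in soma and -2.93, -2.90 and -2.92 in ESC, gave -3.55. Lipa, the acid lipase that frees cholesterol from lipoprotein esters in the lysosome, read -0.08, -0.12 and -0.05 in soma and -2.18, -2.25 and -2.24 in ESC, or 4.41-fold lower in ESC (-2.14, SE 0.0492, adjusted p = 4.72e-07).

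The pair that carries freed cholesterol out of the lysosome moved much less, and in opposite directions. Npc2, the soluble carrier, read 2.96, 2.92 and 2.97 in soma and 2.59, 2.59 and 2.63 in ESC, a difference of -0.35 (SE 0.0462, adjusted p = 0.000564) that did not pass with the array median (-0.15). Npc1, the membrane protein that takes over from it, read -2.17, -2.12 and -2.14 in soma and -1.93, -1.93 and -1.90 in ESC, a difference of 0.22 (SE 0.0439, adjusted p = 0.00355) that did not pass with the spike-in probes (0.012). Both were tight within groups, and both differences were small beside those of Scarb1 and Lipa.

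Storage and transfer gave no call on their brightest probes. Soat1, which esterifies cholesterol for storage, read -1.08, -1.08 and -0.94 in soma and -1.35, -0.65 and -1.40 in ESC. ESC 2 stood above all other arrays and ESC 1 and ESC 3 below them, so the groups overlapped (-0.10, 95% interval -0.62 to 0.42, adjusted p = 0.673). Without ESC 2 the difference was -0.34 and passed (adjusted p = 0.00809), and without ESC 1 or ESC 3 it turned to 0.0082 and 0.035. Stard4, a cytosolic sterol carrier, read 0.71, 0.72 and 0.78 in soma and 0.67, 0.58 and 0.53 in ESC, a difference of -0.15 that just missed the threshold (95% interval -0.29 to -0.0063, adjusted p = 0.0508) and passed without ESC 1 (-0.18, adjusted p = 0.0251). It was also lower and passed under quantile normalization (-0.20), spike-in scaling (-0.36) and normexp correction (-0.14). At -0.15 it passed as well with all 6 arrays above background, the series matrix values and a variance trend. The array median turned the sign (0.049). Its dimmer probe went the other way, from -3.83, -3.58 and -3.56 in soma to -2.91, -2.96 and -2.92 in ESC (0.73, adjusted p = 0.000341 over all probes). No direction can be given for Stard4.

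Export held the sharpest contrast among related members. Abca1, the transporter that hands cholesterol to lipid-poor apolipoprotein and whose upstream sequence is printed above, read 1.19, 1.18 and 1.26 in soma and -1.53, -1.84 and -1.71 in ESC. It was 7.48-fold lower in ESC, at -2.90 (SE 0.0871, adjusted p = 9.89e-07). Abcg1, the transporter that passes cholesterol to mature high-density lipoprotein, read -0.66, -0.78 and -0.76 in soma and 0.63, 0.48 and 0.46 in ESC. It was 2.39-fold higher in ESC, at 1.26 (SE 0.0682, adjusted p = 8.96e-06), and the only member past 2-fold in that direction. Under array-median scaling, Ebp also passed 2-fold (1.05).

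Abcg1 less Abca1 within each array was -1.86, -1.96 and -2.01 in soma and 2.16, 2.32 and 2.17 in ESC. The change between groups was 4.16 (exact two-sided permutation test p = 0.1, the smallest possible, adjusted p = 0.1 over 2 pairs). Its size follows from the opposite directions of the 2 genes and is no further result. Here too the probes differ in brightness, so the sign within a group cannot be read.

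**Figure D3:**
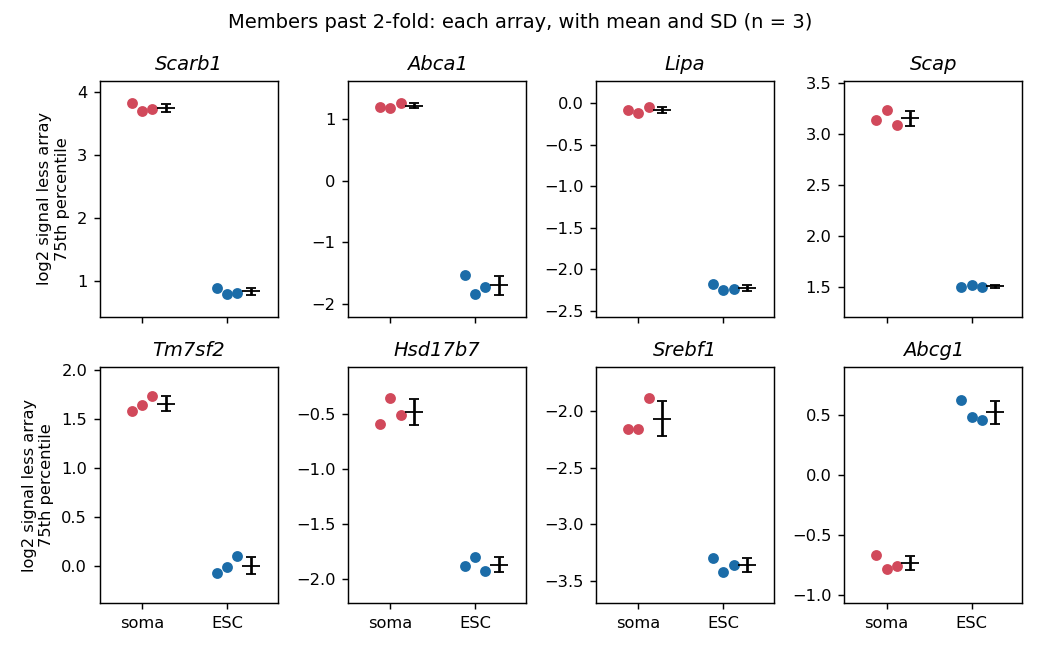
Value of the 8 members past 2-fold on each array (points; vertical axis, log2 signal less the array's 75th percentile, with an axis of its own for each gene), with the mean and SD of 3 arrays beside them, for soma (red) and ESC (blue). No ESC point reaches the soma points in any of the 8 genes, and Abcg1 is the one with ESC above soma.

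Most of the listed cell type markers also differed between the groups. Of the 5 germ cell genes, 1 was higher in ESC, 2 were lower and 2 did not pass. Fetal Leydig cell genes, 4 of the 5 listed being on the array by symbol, had a summed level of 78.8 to 80.0 in soma and 3.04 to 3.48 in ESC, where Cyp11a1 and Hsd3b1 were not well above background. Cyp11a1 cuts the cholesterol side chain to start steroid synthesis. Macrophage genes were lower in ESC for 6 of 6, with Cx3cr1, Adgre1 and C1qc not well above background there, and Sertoli genes for 5 of 5, with Sox9 and Amh not well above background. Red cell genes were lower for 4 of 4 and stroma genes for 5 of 5, while 3 of 5 endothelial genes were lower. These 3, Cdh5, Emcn and Tie1, were not well above background in ESC, and Pecam1 was higher there. The endothelial sums still overlapped, at 4.65 to 6.57 in soma and 4.87 to 5.30 in ESC, and Kdr, which did not pass, read 1.65 to 2.30 in soma and 2.20 to 2.33 in ESC. The part of any of these cell types in the lower Scarb1, Abca1, Lipa, Srebf1 or Tm7sf2 of ESC was not tested.

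The larger differences were also there on the slide that held both groups. Comparing the 3 ESC arrays with soma 3 alone, which assumes that soma 3 varies as ESC does, gave -2.88 for Scarb1, -2.95 for Abca1, -2.18 for Lipa, -1.73 for Tm7sf2, -1.58 for Scap, -1.47 for Srebf1, -1.36 for Hsd17b7 and 1.28 for Abcg1. Counts of passing genes are not given for that fit, which has 1 soma array. With slide as a fixed block the differences also rest on soma 3, because slide 1 held no ESC array. That fit is therefore no separate check. All 8 members past 2-fold kept their direction under each of 19 other settings, 4 of them other scalings or background corrections. Leaving out the shared-slide fit and the fixed-block fit, they also passed under each setting. Of all 24 members that passed, 15 kept direction and call under the settings that remained, and 1, Pmvk, changed sign.

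**Figure D4:**
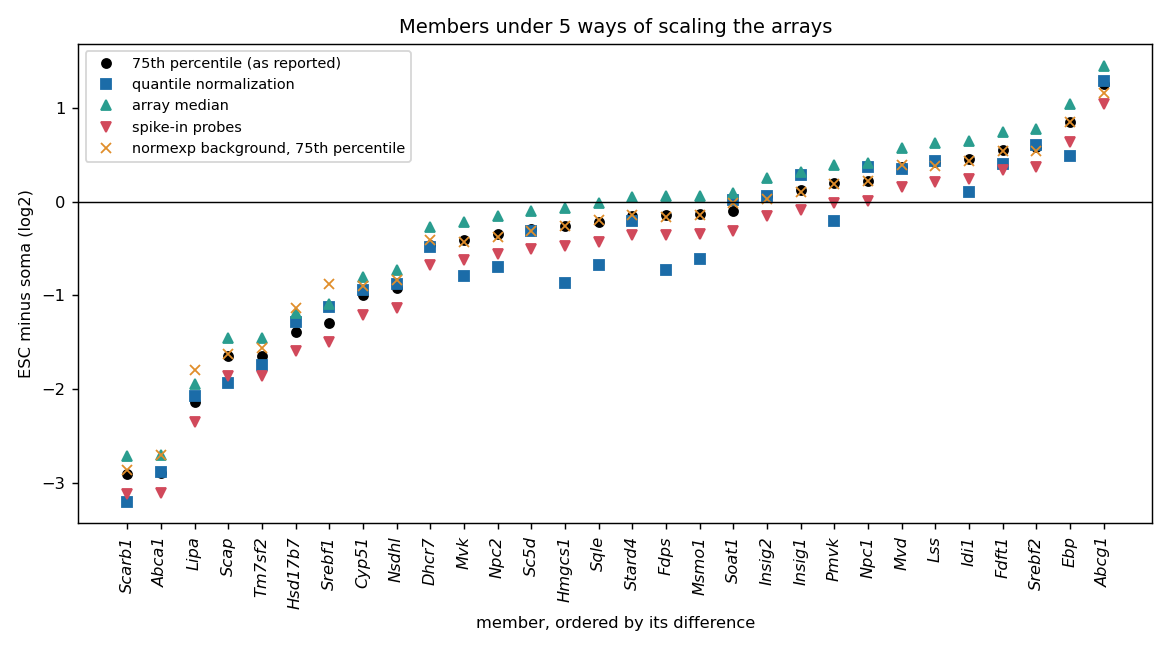
Difference of each member between ESC and soma (vertical axis, log2) under the reported scaling (black) and 4 others, with members ordered by the reported difference. The 11 members at the left, from Scarb1 to Mvk, and Fdft1, Srebf2, Ebp and Abcg1 at the right keep their side of 0, while some members between them come close to 0 or cross it.

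A wider list of 50 further genes of the same pathways gave 47 that could be tested, of which 21 were higher in ESC, 22 were lower and 4 did not pass, with 8 and 12 past 2-fold and a median of -0.21. Over all genes 84.9% passed, 46.6% higher and 38.3% lower. By branch, the remaining synthesis genes were 4 higher and 2 lower, isoprenoid side branches 4 and 2, control genes 5 and 4 of 11, uptake receptors 4 and 2 of 7, transfer and storage genes 2 and 7 of 10, export genes 2 and 2 of 4, and oxysterol enzymes 0 and 3 of 3. The medians were -0.94 for transfer and storage and -1.79 for the oxysterol enzymes, against 0.14 over all genes.

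Named by size, the wider genes highest in ESC began with Soat2, the second esterifying enzyme. It read -1.31, -1.47 and -1.53 in ESC, and no soma array had it well above background (adjusted p = 5.08e-06). Its ESC mean was 14.3-fold above a floor for soma. This floor is the higher of the probe's own signal and the dimmest signal above background on each soma array. The fold is no lower limit, since the difference of 5.16 became 2.62 after normexp correction. Soat1, its relative, gave no call, as above. Lrp2, the large endocytic receptor megalin, was 22.4-fold higher in ESC, at 0.26, 0.40 and 0.08 against -3.92, -4.20 and -4.59 in soma, and its difference of 4.48 became 3.47 after normexp correction. Nus1, a subunit of the enzyme that makes dolichol, was higher by 2.03 on its brightest probe and by 0.73 over the mean of its probes. Lbr, a nuclear envelope protein that is the other 14-reductase of the pathway, was higher by 1.83 (SE 0.0441, adjusted p = 5.28e-07), at 2.62, 2.57 and 2.60 in ESC against 0.78, 0.77 and 0.77 in soma. Lbr and Tm7sf2, which catalyse the same step, therefore differed in opposite directions, the first higher and the second lower in ESC.

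At the other end, Abcg4, a relative of Abcg1, read -0.14, -0.07 and -0.28 in soma and was well above background on 1 of 3 ESC arrays (-4.89, adjusted p = 9.22e-07). Cd36, a scavenger receptor and fatty acid carrier, was at -2.55, -2.44 and -2.53 in soma and above background on no ESC array (adjusted p = 0.000110). Its soma mean was 6.19-fold above such a floor for ESC. That fold is no lower limit either, since the difference of -3.80 became -1.57 after normexp correction. Lrp1, the broad endocytic receptor, was 8.69-fold lower in ESC, at -0.20, -0.10 and -0.09 against 2.96, 2.98 and 3.02. Lrp1 and Lrp2, of 1 receptor family, thus went opposite ways. Cyp7b1, the oxysterol 7-hydroxylase, was lower by 3.76-fold (-1.91, adjusted p = 4.59e-05).

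Some genes of the wider list were singled out after their values were seen because they act on members. Of the LXR receptors, which drive Abca1 and Abcg1, Nr1h2 was higher in ESC by 0.70 and Nr1h3 by 0.77. Mylip, the LXR target that tags lipoprotein receptors for breakdown, was 3.45-fold lower in ESC, at -1.84, -1.94 and -1.90 against -0.15, -0.15 and -0.017 in soma. The proteases that cut SREBPs differed in sign, Mbtps1 at -0.69 and Mbtps2 at 0.84. Gramd1a, Gramd1b and Gramd1c, which carry cholesterol from the cell surface to the endoplasmic reticulum, were all lower in ESC, at -1.54, -1.25 and -1.14.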

How the data were processed

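The deposited scanner files hold, per the file headers, an intensity for each spot on a linear scale, background-subtracted and detrended within the array by Feature Extraction 10.7.3.1, and not scaled across arrays. The series matrix was deposited as log2 values of unstated scale. At least 99.97% of 39429 probes lay within 0.01 of the log2 signal less the array's 75th percentile and the probe's median over arrays. Its column medians were 0.055, -0.25 and -0.0654 for soma and 0.161, -0.0879 and 0.0634 for ESC.

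From the scanner files, log2 processed signals of spots were averaged per probe and the array's 75th percentile over gene probes was subtracted. Control spots (1377) and 15 marked outlier values were left out. A probe was kept if well above background on all arrays of 1 group at least (24153 probes), and a gene took its brightest kept probe. Symbols came from transcript identifiers matched to RefSeq GRCm38.p6, for 66.1% of gene probes. The array's own grid used another assembly, so no probe coordinates are given. The test was limma's, version 3.58.1 (R 4.3.3), on all 6 arrays, checked on simulated data. Its p-values were adjusted by Benjamini-Hochberg over 19673 genes, and 0.05 was the threshold. The number of arrays limits precision, and p-values cover the spread between these samples of 1 line and 1 tissue.

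The members and lists were chosen with earlier results of these data known. Named were all members, each of their kept probes, and from the wider list the 4 largest passing differences in each direction. Alternatives were quantile, array-median and spike-in scaling, normexp (offset 50) on the median spot signal, other probe filters, mean of probes, the series matrix, a variance trend, slide and replicate blocks, the shared slide alone and each array left out.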

Additional observations from a re-analysis of the deposited data

How the results depend on the processing

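The median over all genes moved by -0.12 under quantile normalization, 0.20 with the array median and -0.21 with the spike-in probes. The median of the synthesis enzymes went from -0.21 to -0.61, -0.017 and -0.42 under those scalings in turn. With the spike-in probes, 4 members and 2 synthesis enzymes were higher in ESC, against 9 and 6. Over all genes 7642 were higher with that scaling, against 9175. With the array median, 2 members were 2-fold higher, against 1. Sign changes were those of small differences: Pmvk (-0.21 quantile, -0.0100 spike-in), Fdps (0.059), Msmo1 (0.067), Stard4 (0.049) and Soat1 (0.10) with the array median, Soat1 with quantile normalization (0.016), Insig1 (-0.086) and Insig2 (-0.15) with the spike-in probes, Insig1 with slide as a fixed block or on the shared slide alone (-0.033 in both), and Insig2 (-0.016) and Stard4 (0.29, adjusted p = 0.00633) with the mean of probes. Leaving out 1 array gave 8 to 9 members higher and 14 to 16 lower, and a Soat1 difference of -0.34 to 0.035. The cause of these changes was not tested.

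With the replicate number as a block, 8 members were higher and 15 lower, against 9 and 15 (Pmvk, at 0.20, had an adjusted p of 0.0601 in limma), and 16479 genes passed, against 16712. Same-numbered samples of the groups had correlations of -0.05, 0.07 and 0.03 in their deviations from the group means, so the numbers give no sign of pairing. Soat2, Cd36 and Abcg4 could not be tested with the filter of all 6 arrays above background. Signal over background limits their folds and that of Lrp2: after normexp the 4 genes were at 2.62, -1.57, -3.34 and 3.47.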
